A study of Mus musculus with 6 samples.

Results

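Expression of 10 genes of chondrocyte hypertrophy and cartilage mineralization was measured by RNA-seq in cultured chondrocytes of mice with and without periostin (Postn), a secreted matricellular protein. The genes were taken by name: *Col10a1*, *Alpl*, *Ibsp*, *Spp1*, *Bglap*, *Vegfa*, *Mgp*, *Enpp1*, *Ank* and *Tnfsf11*. They were 10 of the 41388 genes counted, and 9 of them were among the 14533 genes that passed the filter on low values (above 1 CPM, the count scaled to the library's size, in at least 2 samples). The cells were primary chondrocytes digested from femoral head cartilage of male mice at 21 days of age, kept in culture for 2 days, with no treatment in either group. The 3 *Postn*-/- samples came from mice homozygous for the *Postn* tm1Jmol allele on a B6129SF2/J background, a deletion carried in all tissues and not in chondrocytes alone. The 3 *wt* samples had the same mixed B6/129 background, and by the methods the genotypes were littermates from heterozygous crosses. The methods count 3 mice per genotype but the labels do not tie a sample to an animal, so the p-values measure the spread between these samples.

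When growth plate chondrocytes become hypertrophic they enlarge, secrete type X collagen and prepare their matrix for mineral. Whether mineral forms depends on the balance between phosphate and inorganic pyrophosphate, which blocks crystal growth: tissue-nonspecific alkaline phosphatase (*Alpl*) breaks pyrophosphate down, ENPP1 makes it from nucleotides outside the cell, and ANK carries it or its precursor out. Osteopontin (*Spp1*) and bone sialoprotein (*Ibsp*) are acidic phosphoproteins that bind mineral, osteocalcin (*Bglap*) and matrix Gla protein (*Mgp*) are vitamin K-dependent proteins, and VEGF-A and RANKL (*Tnfsf11*) are the signals through which such cells attract vessels and bone-resorbing cells. In articular cartilage type X collagen is known as a mark of hypertrophy, whereas *Mgp*, *Enpp1* and *Ank* are also expressed by normal chondrocytes and hold mineral back.

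Total counts ranged from 20587640 to 26572260, so that 3 counts, taken as the counting floor, corresponded to between 0.113 and 0.146 CPM. *wt* replicate 1 stood apart from the other libraries, at 47.7 on the first principal component of all tested genes (31.9% of the variance) against −17.4 to −0.02 for the others. *Postn* itself, the targeted gene, was at 4.27 to 5.67 CPM in the *Postn*-/- samples and at 6.90 to 10.3 CPM in *wt*, above the counting floor in both. Its log2 fold change was −0.91 (unadjusted p = 0.00362 and adjusted p = 0.717 by edgeR's quasi-likelihood test). RNA counts do not measure the protein: the paper reports no periostin staining in knee joints of *Postn*-/- mice and negligible levels in their serum. The 14 chondrocyte markers, among them *Sox9*, *Acan* and *Col2a1*, were each above 1 CPM in all 6 samples. Their summed level was 35754 to 47587 CPM in *Postn*-/- and 30315 to 43598 CPM in *wt*. CPM and RPKM (CPM per kilobase of exon) are given after TMM normalization, which corrects each library for its composition.

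Promoter windows are shown for the members whose window held the core of the Runx motif, ACCACA or its reverse complement TGTGGT, because Runx2 is a known regulator of hypertrophic cartilage and of osteocalcin. Of the 10 members, 9 had windows in the RefSeq table (GRCm38.p6), each from 250 bases before to 50 bases after an annotated start. The letters were found in 3 of the 12 windows of these 9 genes, and in 16.8% of all 32851 windows of the same length. The match lay 132 bases before the start in *Bglap* (chr3:88384417-88384716, minus strand), 128 bases before it in *Spp1* (chr5:104434861-104435160, plus strand) and 144 bases before it in *Enpp1* (chr10:24712110-24712409, minus strand). A window of *Bglap3* (chr3:88372692-88372991, minus strand), a gene near *Bglap* in the osteocalcin cluster that was hardly expressed here, is shown beside them and had no match. Capitals mark the motif, which overlapped no second copy, and all are written 5′ to 3′ on the gene's strand. A match of these letters is a description of the sequence and not a measured binding site.
Bglap: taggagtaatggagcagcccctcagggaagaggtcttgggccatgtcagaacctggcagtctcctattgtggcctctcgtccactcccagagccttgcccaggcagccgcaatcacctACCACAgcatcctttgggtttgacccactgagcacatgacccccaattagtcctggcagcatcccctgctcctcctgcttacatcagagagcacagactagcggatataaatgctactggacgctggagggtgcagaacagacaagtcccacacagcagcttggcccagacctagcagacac
Spp1: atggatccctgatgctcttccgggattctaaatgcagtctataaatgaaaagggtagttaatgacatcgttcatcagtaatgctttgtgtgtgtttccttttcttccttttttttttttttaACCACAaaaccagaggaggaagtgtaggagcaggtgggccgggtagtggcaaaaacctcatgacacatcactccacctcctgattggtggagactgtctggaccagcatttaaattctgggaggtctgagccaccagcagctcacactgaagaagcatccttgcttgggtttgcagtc
Enpp1: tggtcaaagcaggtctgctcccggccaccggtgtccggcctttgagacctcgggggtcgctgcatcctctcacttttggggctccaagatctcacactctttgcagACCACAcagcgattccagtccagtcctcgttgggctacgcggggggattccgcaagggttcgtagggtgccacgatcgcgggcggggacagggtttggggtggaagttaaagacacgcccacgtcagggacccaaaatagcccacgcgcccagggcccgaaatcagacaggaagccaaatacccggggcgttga
Bglap3: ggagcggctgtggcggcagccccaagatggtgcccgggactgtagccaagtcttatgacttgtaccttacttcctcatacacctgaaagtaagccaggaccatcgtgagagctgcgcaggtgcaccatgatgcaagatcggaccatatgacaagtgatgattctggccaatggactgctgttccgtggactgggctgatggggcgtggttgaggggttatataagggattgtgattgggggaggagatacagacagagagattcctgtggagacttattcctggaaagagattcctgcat

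In the main edgeR fit, no difference between the genotypes passed the test for any of the 9 tested members, from type X collagen to the pyrophosphate genes. By the quasi-likelihood test of edgeR, 0 of 9 were called at a Benjamini-Hochberg adjusted p up to 0.05, beside 0.0138% of all genes tested. At an unadjusted p up to 0.05, 0 of 9 were called, beside 6.3% of all genes (3.95% higher and 2.35% lower in *Postn*-/-), and DESeq2's Wald test also called 0 at either threshold. The voomWithQualityWeights model of limma called *Enpp1* and *Ank* at the unadjusted threshold, both higher in *Postn*-/-, beside 9.2% of all genes. With 2 surrogate variables added it called 4 members (*Enpp1*, *Ank* and *Col10a1* higher, *Alpl* lower) beside 13.7% of all genes, with a lowest adjusted p of 0.187 for *Enpp1*. The paper's own differential expression used this kind of model, voomWithQualityWeights with surrogate variables, and not the edgeR test. With the replicate number as a block, edgeR called *Enpp1* and *Ank* (unadjusted p = 0.0438 and 0.0414), beside 8.17% of all genes. It also called *Enpp1* with upper quartile normalization (beside 6.36% of all genes) or with CPM above 1 in all 6 samples (6.45%). Without a filter it called *Enpp1* and *Col10a1* (beside 5.24%). All of these edgeR calls were higher in *Postn*-/-, and no member passed the adjusted threshold in any of these fits. Log2 fold changes, *Postn*-/- over *wt*, were above 0 for *Col10a1*, *Spp1*, *Enpp1*, *Ank*, *Vegfa* and *Bglap* (6 members) and below 0 for *Alpl*, *Ibsp* and *Mgp* (3 members). Their median was 0.07, and the median over all genes was 0.0042. The median of the members was not stable, at −0.07 without *wt* replicate 3, 0.24 without *wt* replicate 1, 0.29 without *wt* replicate 2 and 0.26 with voomWithQualityWeights. In 0 of the 9 did every sample of one genotype lie beyond every sample of the other, beside 13.6% of all genes. The 95% intervals were wide, from 0.512-fold to 4.14-fold for *Spp1* and from 0.285-fold to 1.57-fold for *Alpl*.

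*Col10a1* encodes type X collagen, the collagen that defines the hypertrophic zone, and lies on chromosome 10 (34389981 to 34397085, plus strand, GRCm38). Levels were 1177, 1610 and 1392 CPM in *Postn*-/- replicates 1, 2 and 3, and 213, 1076 and 1185 CPM in those of *wt*. The *Postn*-/- samples were close together and the *wt* samples were not. *wt* replicate 3 exceeded *Postn*-/- replicate 1 by a few CPM, and *wt* replicate 1 was the lowest by far (means of 1393 ± 216 against 825 ± 533 CPM, ± SD, n = 3 each). The log2 fold change was 0.76 (standard error 0.53, 95% interval −0.47 to 1.98, adjusted p = 0.740 by edgeR). Without *wt* replicate 1 the *wt* mean was 1131 CPM (n = 2) and the log2 fold change 0.30 (unadjusted p = 0.120 by edgeR).

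*Alpl*, the phosphatase that removes pyrophosphate (chromosome 4, 137741733 to 137796384, minus strand), reached 729, 1191 and 573 CPM in the *Postn*-/- samples against 465, 2294 and 967 CPM in *wt*. The lowest and the highest of the 6 samples were both *wt*. The log2 fold change was −0.58 (standard error 0.53, 95% interval −1.81 to 0.65, adjusted p = 0.794 by edgeR). Its direction rested on *wt* replicate 2, without which the log2 fold change was 0.22. Without *wt* replicate 1 it was −0.97, with an unadjusted p of 0.0494 and, after adjustment by edgeR, a p of 0.833, in a fit where 5.44% of all genes had an unadjusted p of at most 0.05.

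*Enpp1*, which generates pyrophosphate (chromosome 10, 24637914 to 24712159, minus strand), reached 112, 120 and 133 CPM in the *Postn*-/- samples against 117, 62.0 and 81.1 CPM in *wt*. Only *wt* replicate 1 reached into the *Postn*-/- range. The log2 fold change was 0.49 (standard error 0.22, 95% interval −0.01 to 0.99, unadjusted p = 0.0550 and adjusted p = 0.717 by edgeR), which gave *Enpp1* the lowest unadjusted p of the members. *Ank*, whose product exports pyrophosphate or its precursor ATP (chromosome 15, 27466677 to 27594909, plus strand), reached 58.7, 47.2 and 53.1 CPM in the *Postn*-/- samples against 57.2, 34.7 and 36.4 CPM in *wt*. Here too *wt* replicate 1 lay among the *Postn*-/- samples and the other *wt* samples lay below all of them. The log2 fold change of *Ank* was 0.31 (standard error 0.20, 95% interval −0.16 to 0.77, adjusted p = 0.730 by edgeR).

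Without *wt* replicate 1, the library that stood apart, the log2 fold change of *Enpp1* was 0.76 (unadjusted p = 0.00140) and that of *Ank* 0.58 (unadjusted p = 0.00252), both with an adjusted p of 0.833 by edgeR. The genotypes then did not overlap for *Enpp1* and *Ank*, 2 of 9 members, beside 22.3% of all genes in that comparison of 3 samples with 2. No single other omission brought a member to an unadjusted p of 0.05. Leaving out other samples kept both log2 fold changes above 0, with lowest values of 0.29 for *Enpp1* and 0.18 for *Ank*.

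**Figure D1:**
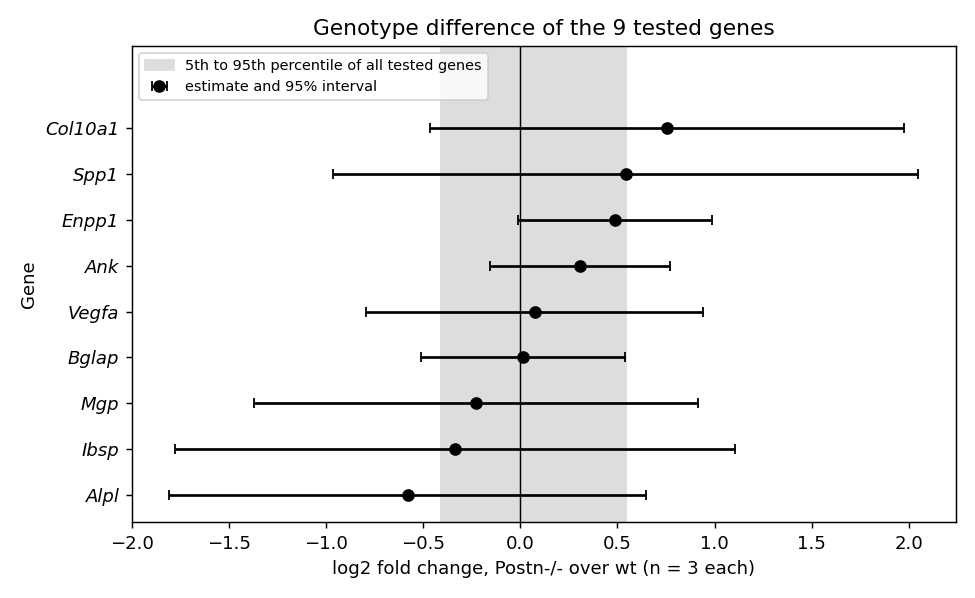
Log2 fold change (*Postn*-/- over *wt*) of the 9 tested members with 95% intervals from edgeR's quasi-likelihood test, beside the band from the 5th to the 95th percentile of all tested genes (−0.41 to 0.54). Each interval includes 0, and those of *Enpp1*, *Ank* and *Bglap* are the narrowest.

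*Spp1*, which encodes osteopontin (chromosome 5, 104435118 to 104441050, plus strand), reached 1681, 9107 and 2689 CPM in the *Postn*-/- samples against 2326, 5250 and 1680 CPM in *wt*. Replicate 2 was the highest sample in each genotype, and the lowest samples of the genotypes differed by about 1 CPM. It had a log2 fold change of 0.54 (standard error 0.65, 95% interval −0.96 to 2.05, adjusted p = 0.837 by edgeR). It was −0.50 without *Postn*-/- replicate 2. Of the 50-base words of *Spp1* transcripts, 11.6% also occur in *Gm42793*, so that uniquely counted reads could miss part of the gene.

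*Ibsp*, the bone sialoprotein gene that lies near *Spp1* (chromosome 5, 104299171 to 104311469, plus strand), reached 397, 513 and 218 CPM in the *Postn*-/- samples against 127, 925 and 374 CPM in *wt*. As for *Alpl*, the extremes were *wt* replicates 1 and 2, which differed 7.30-fold. *wt* replicates 2 and 3 differed 2.48-fold. It had a log2 fold change of −0.34 (standard error 0.62, 95% interval −1.78 to 1.11, adjusted p = 0.898 by edgeR), which was −0.79 without *wt* replicate 1 and 0.59 without *wt* replicate 2. In spite of their nearby positions *Ibsp* and *Spp1* did not keep a fixed ratio: per length *Spp1* exceeded *Ibsp* between 5.32-fold and 23.1-fold in single samples, or up to 22.3-fold without *wt* replicate 1.

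*Bglap*, the osteocalcin gene (chromosome 3, 88383501 to 88384464, minus strand), reached 102, 95.3 and 151 CPM in the *Postn*-/- samples against 149, 102 and 94.0 CPM in *wt*. Both genotypes covered nearly the same range, at 116 ± 30.4 and 115 ± 29.5 CPM. Its log2 fold change was 0.01 (standard error 0.23, 95% interval −0.51 to 0.54, adjusted p = 0.993 by edgeR), an interval that runs from 0.70-fold to 1.45-fold. Leaving out each library in turn moved the log2 fold change between −0.22 (without *Postn*-/- replicate 3) and 0.24 (without *wt* replicate 1). *Bglap* shares 56.6% of its 50-base words with other genes, mostly with its neighbour *Bglap2*, so counting could split or discard their reads and both levels are uncertain. *Bglap2* reached 39.9, 34.6 and 59.7 CPM in the *Postn*-/- samples against 53.6, 35.4 and 31.4 CPM in *wt*, the same order of samples as *Bglap* within *Postn*-/- and within *wt*. *Bglap3* was at most at 0.524 CPM.

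*Mgp*, an inhibitor of cartilage and vessel calcification (chromosome 6, 136872436 to 136875805, minus strand), reached 2780, 1057 and 1046 CPM in the *Postn*-/- samples against 1874, 2924 and 926 CPM in *wt*. Each genotype held high and low samples, and their ranges overlapped almost fully. Its log2 fold change was −0.23 (standard error 0.49, 95% interval −1.37 to 0.91, adjusted p = 0.914 by edgeR). The sign rested on single libraries: the value was −0.86 without *Postn*-/- replicate 1, 0.22 without *wt* replicate 2 and close to 0 without *Postn*-/- replicate 2 (0.0019) or 3 (0.0053). It was 0.03 with voomWithQualityWeights without surrogate variables.

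The signals to other cells were the least expressed members. *Vegfa*, the vessel growth factor (chromosome 17, 46016993 to 46032377, minus strand), reached 7.19, 4.64 and 8.82 CPM in the *Postn*-/- samples against 4.19, 10.3 and 5.18 CPM in *wt*, with a log2 fold change of 0.07 (standard error 0.38, 95% interval −0.80 to 0.94, adjusted p = 0.967 by edgeR). That value was −0.17 without *wt* replicate 1, −0.07 without *wt* replicate 3, −0.15 without *Postn*-/- replicate 3 and 0.56 without *wt* replicate 2. *Tnfsf11*, the gene of RANKL (chromosome 14, 78277445 to 78308043, minus strand), had 14, 11 and 2 counts in the *Postn*-/- samples and 3, 34 and 9 counts in *wt*. It exceeded 1 CPM in *wt* replicate 2 alone, at 1.54 CPM, and so did not pass the filter. *Postn*-/- replicate 3 and *wt* replicate 1 were at or under the floor of 3 counts. Fitted without the filter, *Tnfsf11* had a log2 fold change of −0.87 (unadjusted p = 0.186, adjusted p = 0.833 by edgeR), a value that rests on few counts. The gene of its decoy receptor osteoprotegerin, *Tnfrsf11b*, reached 876, 745 and 832 CPM in the *Postn*-/- samples against 1928, 292 and 724 CPM in *wt*. The lowest *Tnfrsf11b* level was in *wt* replicate 2, where *Tnfsf11* was highest, and the highest was in *wt* replicate 1, which had 3 *Tnfsf11* counts. *Postn*-/- replicate 3, with the fewest *Tnfsf11* counts, was in the middle of the *Tnfrsf11b* range.

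Per length, the levels of the members fell into tiers separated by gaps. Averaged over the 6 samples, *Mgp* was at 2956 ± 1516 RPKM and *Spp1* at 2299 ± 1772 RPKM, and every sample of both lay above every sample of *Col10a1*. The next tier held *Col10a1* at 354 ± 153, *Alpl* at 257 ± 166, *Ibsp* at 206 ± 136 and *Bglap* at 187 ± 43.4 RPKM, whose neighbours in the order overlapped in range. *Ank* at 13.3 ± 2.87 and *Enpp1* at 10.2 ± 2.62 RPKM followed after a gap, and *Ank* exceeded *Enpp1* in 6 of 6 samples although their ranges overlapped. *Vegfa* at 1.56 ± 0.574 and *Tnfsf11* at 0.238 ± 0.236 RPKM came last, with no overlap between them or with *Enpp1*. The order differed between the genotypes only within the upper tiers: *Spp1* averaged above *Mgp* in *Postn*-/- and below it in *wt*, *Col10a1* averaged above *Alpl* in *Postn*-/- and below it in *wt*, and *Bglap* averaged above *Ibsp* in *Postn*-/- and below it in *wt*. Each of these differences in order was lost on leaving out a single library. It was *Postn*-/- replicate 2 for *Spp1* and *Mgp*, and *wt* replicate 2 for *Col10a1* and *Alpl*. For *Bglap* and *Ibsp* it was either *wt* replicate 2 or *Postn*-/- replicate 3. Within each genotype the ranges of both genes overlapped in these pairs, except that *Col10a1* (376 to 514 RPKM) lay above *Alpl* (142 to 295 RPKM) in every *Postn*-/- sample.

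**Figure D2:**
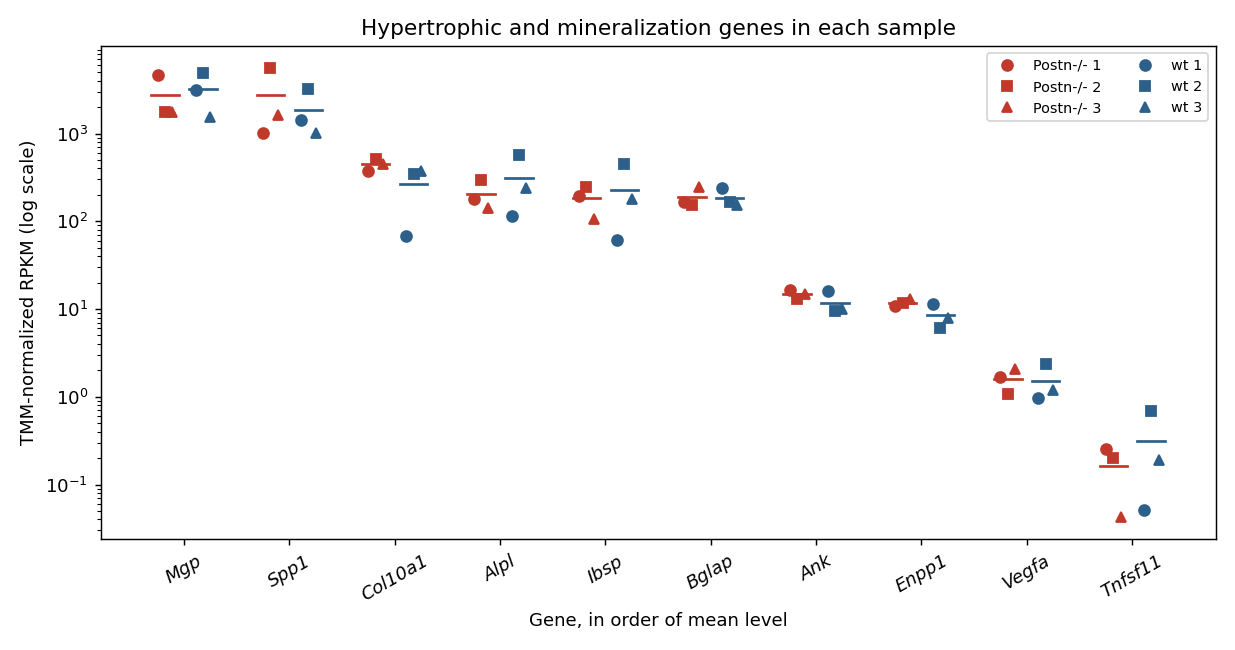
TMM-normalized RPKM (log axis) of the 10 members in each sample, in order of mean level, with a symbol per replicate and a line at each genotype's mean. The genotypes overlap for every member, and the lowest *Col10a1* sample, *wt* replicate 1 at 68.0 RPKM, lies below the other 5, which are at 344 to 514 RPKM.

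The members varied more between samples of the same genotype than most genes did. The biological coefficient of variation, edgeR's estimate of the spread between replicates beyond counting error, had a median of 0.183 over all tested genes, and all 9 members were above it. It was 0.538 for *Spp1*, 0.521 for *Ibsp*, 0.448 for *Alpl*, 0.445 for *Col10a1* and 0.419 for *Mgp*. These are abundant genes, and among the 1891 genes averaging above 100 CPM, where the median was 0.140, no more than 1.43% were as variable as any of the 5. *Vegfa* at 0.329 lay between, and *Bglap* at 0.213, *Enpp1* at 0.204 and *Ank* at 0.191 were nearer to the bulk of genes. Part of this spread came with *wt* replicate 1. Without it the coefficient was 0.156 for *Col10a1*, 0.324 for *Alpl* and 0.345 for *Ibsp*, while *Spp1* at 0.550 and *Mgp* at 0.437 were as variable as before, and 6 of the 9 members lay above the median of all genes, then 0.169. All members but *Vegfa* and *Tnfsf11* had at least 760 counts in every sample.

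**Figure D3:**
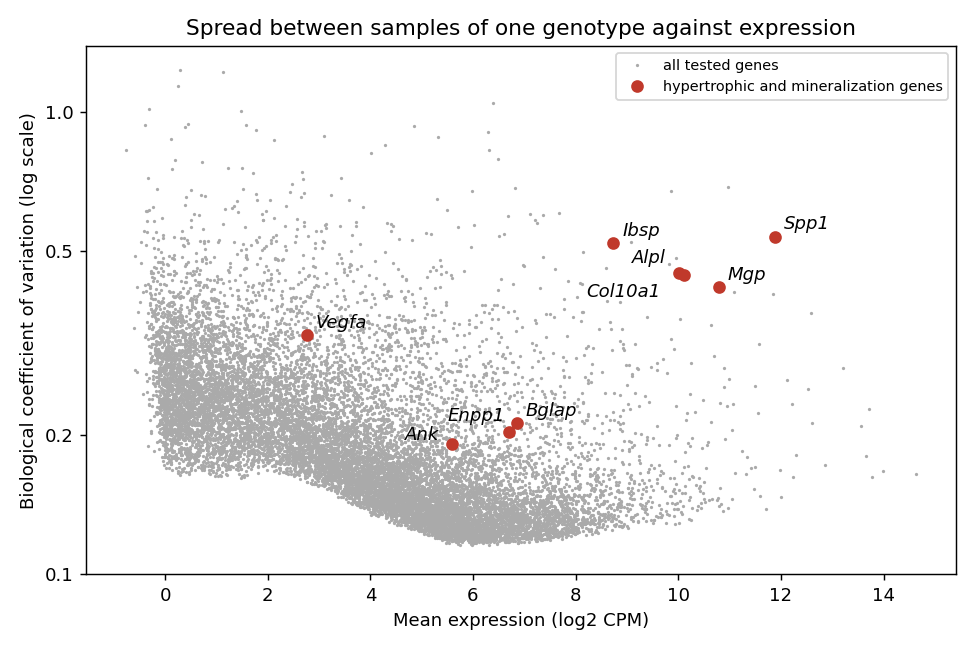
Biological coefficient of variation (log axis) against mean log2 CPM for all 14533 tested genes, with the 9 tested members marked. *Spp1*, *Ibsp*, *Alpl*, *Col10a1* and *Mgp* lie in the upper edge of the cloud at high expression, at 0.419 to 0.538.

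Expressed as log2 differences from each gene's mean over the 6 samples, the members did not move as a single group. *Alpl* and *Ibsp* were nearly parallel, with a root-mean-square distance of 0.29 between their profiles. Both were highest in *wt* replicate 2, at 1.36 and 1.39, and lowest in *wt* replicate 1, at −0.95 and −1.48. *Enpp1* and *Ank*, which act against *Alpl* in the pyrophosphate balance, were the closest pair at 0.19 and were both lowest in *wt* replicate 2, at −0.70 and −0.43. *Bglap* was nearer to *Ank* (0.27) and *Enpp1* (0.34) than to *Alpl* (0.98) or *Ibsp* (1.15). The distance is not scaled by spread, and genes that vary little lie near each other whatever their course. The SD of log2 CPM over the 6 samples was 0.32 for *Bglap*, 0.33 for *Ank* and 0.42 for *Enpp1*. It was 0.83 for *Alpl* and 0.99 for *Ibsp*. *Col10a1* was led by its value of −2.15 in *wt* replicate 1 and *Spp1* by its value of 1.57 in *Postn*-/- replicate 2, and the most distant pair was *Col10a1* and *Mgp* at 1.34. Without *wt* replicate 1 that distance was 0.89 and the most distant pair was *Spp1* and *Mgp* at 1.23. *Alpl* and *Ibsp* (0.19) and *Enpp1* and *Ank* (0.20) were then the closest pairs. *Col10a1* then lay 0.28 from *Ank* and from *Enpp1*, but only 0.21 from its own mean over those 5 samples. These 0.28 distances therefore show little spread and no shared course. These distances come from 6 libraries that the genes share and are given as a description.

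**Figure D4:**
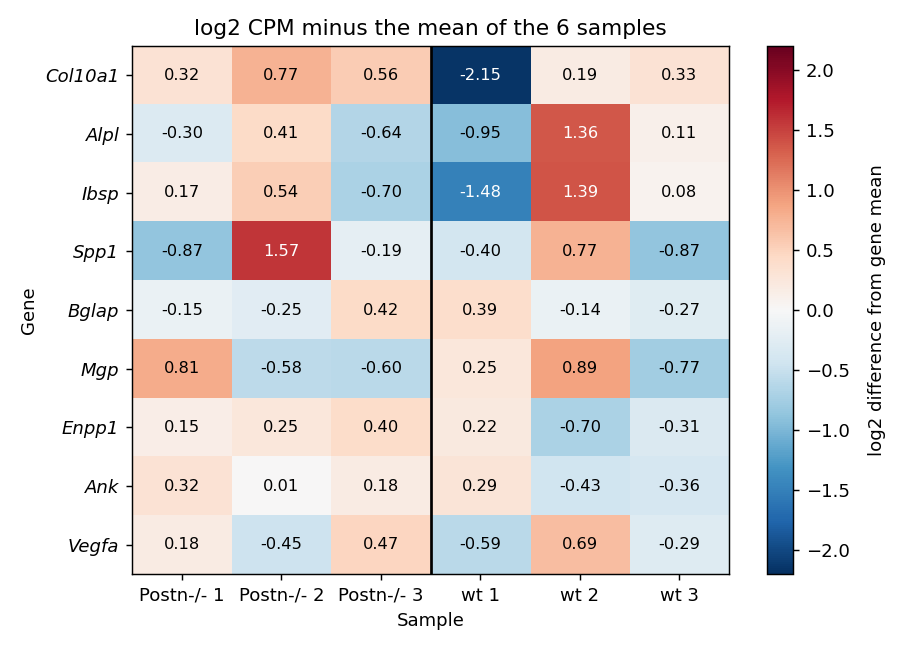
Log2 difference of each tested member from its own mean over the 6 samples, with members in rows and samples in columns. *Alpl* and *Ibsp* are highest in *wt* replicate 2, where *Enpp1* and *Ank* are lowest, and *Col10a1* is lowest in *wt* replicate 1.

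The ratios of these opposing genes varied widely between samples. Per length, *Enpp1* to *Alpl* was 0.0604, 0.0395 and 0.0913 in *Postn*-/- and 0.0992, 0.0106 and 0.0330 in *wt*, a 9.34-fold range whose ends were both *wt*. *Ank* to *Alpl* ranged from 0.0169 to 0.138, again with both ends in *wt*. Without *wt* replicate 1 the highest ratios were 0.0913 for *Enpp1* to *Alpl* and 0.104 for *Ank* to *Alpl*, and the ranges were 8.60-fold and 6.13-fold. The genotypes overlapped for both ratios and for *Tnfsf11* to *Tnfrsf11b*. The ratio of *Col10a1* to *Alpl*, chosen after its values were seen, was 2.08, 1.74 and 3.13 in *Postn*-/- and 0.590, 0.604 and 1.58 in *wt*, without overlap. Without overlap were also 0.812% of the ratios of *Alpl* to all other genes and 30.7% of those of *Col10a1*, so the share depends on which gene of the pair is held. No test was made on a ratio picked in this way.

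The wider pathway was taken from lists of 82 genes that include the members, of which 70 were tested. Among them 2 passed an unadjusted p of 0.05, both higher in *Postn*-/-, which is 2.86% of the tested genes beside 6.3% of all genes (3.95% of all genes in that direction). This order depended on the fit: without *wt* replicate 1 it was 9 of 70 (12.9%) beside 5.44%, with surrogate variables 19 of 70 (27.1%) beside 13.7%, and without a filter 10 of 82 (12.2%) beside 5.24%. *Csf1*, the growth factor of macrophages and osteoclast precursors, reached 452, 590 and 425 CPM in the *Postn*-/- samples against 295, 353 and 376 CPM in *wt* (log2 fold change 0.52, unadjusted p = 0.0121, adjusted p = 0.717 by edgeR). *Slc20a2*, a sodium-phosphate cotransporter, reached 33.3, 33.8 and 31.6 CPM in the *Postn*-/- samples against 26.1, 28.1 and 27.4 CPM in *wt* (log2 fold change 0.28, unadjusted p = 0.0281, adjusted p = 0.717 by edgeR). Both were among the 4 of 70 tested list genes whose genotypes did not overlap (5.71%, 3 higher and 1 lower in *Postn*-/-), beside 13.6% of all genes. Neither *Csf1* nor *Slc20a2* passed the adjusted threshold.

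Of 22 genes of the hypertrophy list, 20 were tested and 0 were called at the unadjusted threshold, beside 6.3% of all genes. Their log2 fold changes were above 0 for 9 and below 0 for 11. The genotypes did not overlap for 2 of the 20 (10%, 1 higher and 1 lower in *Postn*-/-), beside 13.6% of all genes. *Mmp13*, the collagenase of late hypertrophic cells, reached 922, 4309 and 439 CPM in the *Postn*-/- samples against 897, 4163 and 1319 CPM in *wt*. Replicate 2 was the highest in each genotype, as for *Spp1*. The transcription factor gene *Runx2* reached 37.7, 50.3 and 33.3 CPM in the *Postn*-/- samples against 32.6, 59.9 and 38.1 CPM in *wt*, and *Sp7*, which encodes osterix, reached 39.8, 58.9 and 38.0 CPM in the *Postn*-/- samples against 17.1, 72.3 and 40.2 CPM in *wt*. For *Runx2* and *Sp7*, as for *Alpl* and *Ibsp*, *wt* replicate 2 was the highest of the 6 and *wt* replicate 1 the lowest. *Ihh*, the prehypertrophic hedgehog ligand, did not exceed 7.24 CPM, with the same samples at its ends.

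Of 16 genes of phosphate and pyrophosphate handling, 14 were tested and *Slc20a2* alone was called at the unadjusted threshold (7.14%), beside 6.3% of all genes. The same share of all genes applies to each list below, where so few genes were tested that a count of 0 or 1 says little about the list. *Phospho1*, the phosphatase of matrix vesicles, was not tested, at 0.366 to 1.54 CPM. The 7 annexins, calcium-binding proteins of matrix vesicles, gave 0 calls, and *Anxa5* was at 1368 to 1712 CPM over the 6 samples. Of the 5 genes in the acidic glycoprotein family of *Spp1* and *Ibsp*, 3 were tested with 0 calls, and *Dmp1* was at 0.226 to 1.48 CPM. Of 10 genes of vitamin K-dependent proteins and their processing, 9 were tested with 0 calls. Other inhibitors of mineralization (4 of 6 tested) and the VEGF axis (10 of 12 tested) gave 0 calls as well, and the RANKL axis (5 of 6 tested) gave *Csf1* alone.

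Several members are also expressed by osteoblasts, and markers of that lineage varied between libraries. The summed level of 12 osteoblast and osteocyte markers, a list that itself holds *Bglap*, *Bglap2* and *Sp7*, was 738 to 1627 CPM in *Postn*-/- and 722 to 2278 CPM in *wt*. It was highest in *wt* replicate 2 and next in *Postn*-/- replicate 2, the samples with the highest *Alpl*, *Ibsp* and *Spp1*. Most of it was *Col1a1*, at 845, 1430 and 482 CPM in the *Postn*-/- samples against 566, 2059 and 549 CPM in *wt*. Not every marker of the list followed the sum. *Sp7* was highest in the same samples, but *Bglap* and *Bglap2* were lowest within *Postn*-/- in replicate 2, at 95.3 and 34.6 CPM. In *wt* replicate 2 they were at 102 and 35.4 CPM, below *wt* replicate 1. Of the 12 markers 6 were above 1 CPM in all 6 samples, and 8 were tested, of which 0 were called at the unadjusted threshold, beside 6.3% of all genes. *Pdpn* was listed at 0 in every sample, and the osteocyte genes *Sost* and *Mepe* were at most at 0.161 and 0.366 CPM. Their part in the spread of the members was not tested, and in these bulk samples fewer cells of a type and less RNA per cell cannot be told apart.

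Markers of other cell types were summed in the same way. The 10 osteoclast markers summed to 395 to 503 CPM in *Postn*-/- and 354 to 463 CPM in *wt*, most of it *Ctsk*, while *Mmp9* was at most at 0.269 CPM. The 10 macrophage and leukocyte markers summed to 39.9 to 62.3 CPM in *Postn*-/- and 23.6 to 41.4 CPM in *wt*, the 8 endothelial markers to 8.16 to 13.2 and 6.23 to 10.4 CPM, and the 6 erythroid markers to less than 1 CPM in every sample. The 9 fibroblast and synovial lining markers, which include *Col1a1*, summed to 1077 to 1975 CPM in *Postn*-/- and 1029 to 2366 CPM in *wt*. None of these lists held a gene called at the unadjusted threshold, beside 6.3% of all genes. Tested were 5 osteoclast, 7 macrophage and leukocyte, 5 endothelial and 8 fibroblast and synovial lining markers. No erythroid marker was tested, so that list could not give a call. Of the 14 chondrocyte markers 2 were called, both higher in *Postn*-/-, beside 3.95% of all genes in that direction: *Col2a1* (log2 fold change 0.68, unadjusted p = 0.0125, adjusted p = 0.717 by edgeR) and *Col11a2* (log2 fold change 0.52, unadjusted p = 0.0406, adjusted p = 0.717 by edgeR).

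Genes with the profile most like that of *Col10a1* were sought by root-mean-square distance between gene-centred log2 CPM over the 6 samples, among 1510 genes with a comparable spread. The nearest were *Gm7457* (0.27), *Gm13230* (0.33), *Trim30e-ps1* (0.39), *Zfp352* (0.40) and *Adra2a* (0.40), against 0.98 for the distance of *Col10a1* from its own mean. All were lowest in *wt* replicate 1, and the likeness rests on that library: over the other 5 samples *Trim30e-ps1* ranked 49 and the others 779 or lower among 11876 genes. The first 4 did not exceed 2.14 CPM in any sample, and *Adra2a* was at 0.961 to 4.66 CPM, so their profiles rest on few counts. No gene of the wider lists was among them.

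**Figure D5:**
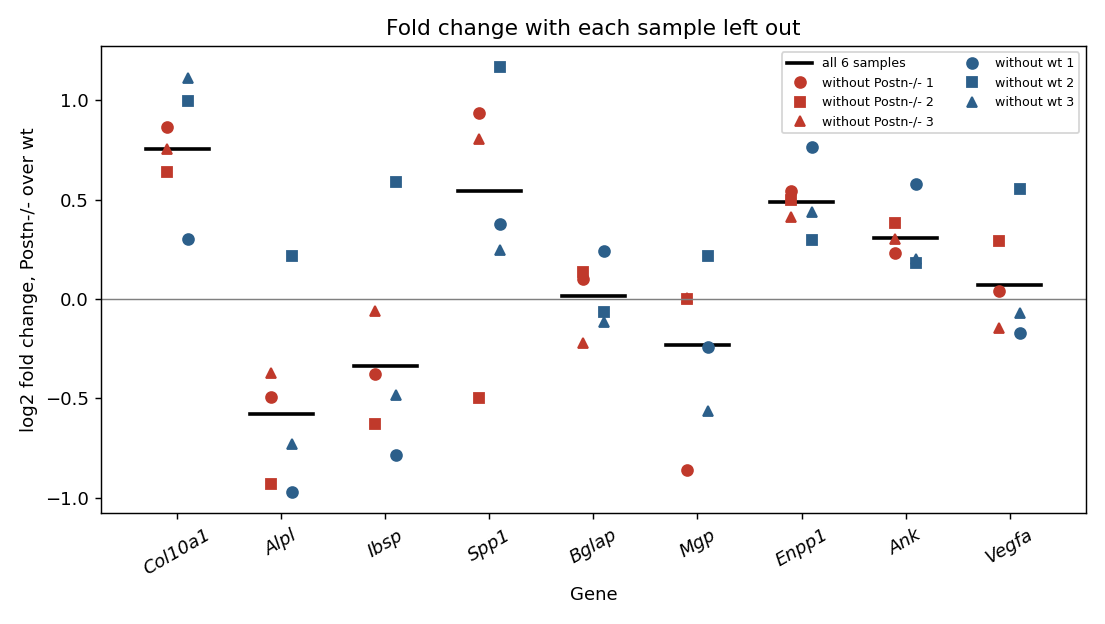
Log2 fold change (*Postn*-/- over *wt*) of each tested member with all 6 samples and after leaving out each sample in turn. *Col10a1*, *Enpp1* and *Ank* stay above 0 throughout, while *Alpl*, *Ibsp*, *Spp1*, *Bglap*, *Vegfa* and *Mgp* each cross 0 on leaving out at least 1 sample.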

How the data were processed

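RNA-seq libraries came from the SMARTer Ultra Low kit and 50-base single-end sequencing. According to the methods and labels, reads were aligned by STAR 2.0.4b against Ensembl, and featureCounts 1.4.5 kept unique, unambiguous alignments; whether strand was used is not given in the sources used here. The authors deposited raw counts of 41388 genes per sample. The deposited CPM is each count divided by the library total, and the deposited RPKM is that value per kilobase of exon; both were only checked against the counts. The submitters' processing notes name mm9, but gene positions are those of GRCm38: 40340 identifiers (97.5%) matched GENCODE M21, and 40244 of these overlapped its position.

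The filter kept genes above 1 CPM in 2 or more samples and dropped 355 rRNA genes. TMM-normalized counts were tested in R 4.3.3 with edgeR 4.0.16 (quasi-likelihood test, Benjamini-Hochberg adjustment over 14533 genes, no covariates). Standard errors were derived from the log2 fold change and its F statistic. Floors cover counting error only. No pair of libraries had counts that agreed within sampling noise. The 15 alternatives were limma 3.58.1 (voomWithQualityWeights without and with 2 surrogate variables from sva 3.50.0), DESeq2 1.42.0, the size factors of DESeq2 within edgeR, normalization to the upper quartile, 2 other filters, a robust fit, a block for the replicate number, and omission of each sample. Coefficients of variation, ratios, profile distances and nearest profiles without *wt* replicate 1 were added after seeing the data. All 10 members, *Postn*, called genes of the wider lists, a set of pathway genes and the 5 nearest profiles to *Col10a1* were named by rule. The marker genes given with values and the ratios other than *Enpp1* to *Alpl*, *Ank* to *Alpl* and *Tnfsf11* to *Tnfrsf11b* were picked after values were seen. Members and lists were chosen with earlier results of these data known. No window of *Mgp* was in the promoter table.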

Additional observations from a re-analysis of the deposited data

How the results depend on the processing

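The members called at an adjusted p of 0.05 numbered 0 in all 15 alternatives. At the unadjusted threshold 0 members became 2 with voomWithQualityWeights (9.20% of all genes), 4 with surrogate variables added (13.7%), 1 with upper quartile normalization (6.36%), 2 without a filter on low counts (5.24%), 1 with CPM above 1 in all 6 samples (6.45%), and 0 to 3 on leaving out a sample (2.98% to 8.71%). In the same order, the 2 genes of the wider lists (2.86% of those tested) became 6 (8.57%), 19 (27.1%), 4 (5.71%), 10 (12.2%), 4 (6.15%), and 2 to 9 (2.86% to 12.9%). Over all genes, the 916 calls became 1997 with surrogate variables, 1797 without a filter, and 425 to 1257 on leaving out a sample. The 2 adjusted calls became 10 with DESeq2, 1 with voomWithQualityWeights, 4 with surrogate variables, 1 with upper quartile normalization, 9 without a filter, 0 with CPM above 1 in all 6 samples, and 1 to 2 on leaving out a sample. The count of members without overlap, 0, became 1 (*Col10a1*) without a filter, beside 10.2% of all genes. It was 0 to 2 on leaving out a sample: *Col10a1* and *Enpp1* without *Postn*-/- replicate 1 (25.9% of all genes), *Enpp1* and *Ank* without *wt* replicate 1 (22.3%) and *Col10a1* without *wt* replicate 3 (24.6%). The median log2 fold change over the members ranged from −0.07 to 0.29 on leaving out a sample. The cause was not tested.

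On leaving out a sample, log2 fold changes ranged from −0.97 to 0.22 for *Alpl*, from −0.79 to 0.59 for *Ibsp*, from −0.50 to 1.17 for *Spp1*, from −0.22 to 0.24 for *Bglap*, from −0.17 to 0.56 for *Vegfa* and from −0.86 to 0.22 for *Mgp*. Those of *Col10a1* (0.30 to 1.11), *Enpp1* (0.29 to 0.76) and *Ank* (0.18 to 0.58) stayed above 0. Elsewhere the sign changed for *Bglap* without a filter (−0.019) and for *Mgp* with voomWithQualityWeights (0.030).

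Same-numbered samples share only a number. Their deviations from the group means correlated at 0.0824, 0.155 and 0.143 across genes, against −0.130 to 0.0143 for other pairs, and each sample correlated best with its own number, a hint from the data and not from the design. With the replicate number as a block, 2 members (*Enpp1* and *Ank*), 7 genes of the wider lists and 1188 of all genes (8.17%) passed the unadjusted threshold, and 1 gene the adjusted one.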
